A study of Mus musculus with 8 samples.

Results

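The genes described here are 38 genes of B cells, of the lymphoid follicles that B cells form in the gut wall, and of the vessels and epithelium that serve those follicles. They were chosen by symbol, and all 38 symbols had 1 row each among the 55487 genes of the deposited table. The selection was made with earlier results of these libraries known, and those results came from the same genotype comparison, so the levels below describe the genes and do not test them. The study sequenced poly(A) RNA of the ileum after irinotecan had been given to mice, numbered 1 to 4 per genotype by the labels, in 8 libraries, 4 from Gsdme-deficient mice (genotype Gsdme-/-, here Gsdme_KO) and 4 from wild-type mice (genotype Gsdme+/+, here WT), and both genotypes had received the drug. Irinotecan is a topoisomerase I inhibitor used against cancer, and the product of Gsdme, gasdermin E, opens membrane pores once a caspase has cut it. No untreated mice were analysed here. The sources used here do not give the dose, the time after treatment, the age of the mice or the way the allele was made.

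B cells recognise antigen through surface immunoglobulin, which signals through the paired chains CD79A and CD79B, and co-receptors raise or lower the strength of that signal. In the small intestine B cells gather in Peyer's patches and smaller isolated follicles. Lymphotoxin made by lymphocytes keeps these structures in order, lymphocytes enter them from the blood through high endothelial venules, and the overlying follicle epithelium holds M cells, which carry luminal antigen and bacteria inwards. Peyer's patches lie at intervals along the ileum, and the sources used here do not say whether one lay within a sequenced tissue piece.

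Gsdme itself, a check of the labels, had 113, 187, 634 and 464 in Gsdme_KO, against 3376, 2169, 3164 and 2696 in WT, in normalized counts and in the library order KO4, KO5, KO7 and KO8 and then WT3, WT5, WT7 and WT8, an order kept below. All Gsdme_KO libraries lay below all WT libraries. The libraries held between 15617407 and 23437343 reads in genes. A normalized count is the number of reads in a gene divided by 1 factor per library, and 3 reads corresponded to between 2.25 and 3.65 normalized counts. Genes other than those of B cells also set KO4 and KO5 apart. The summed level of 10 ileal enterocyte markers was 169105, 245179, 514377 and 389282 in Gsdme_KO, against 298020.0 to 515497 in WT, and that of 10 T cell markers was 1818, 1371, 574 and 573 in Gsdme_KO, against 437 to 599 in WT. The part of these shifts in the results was not tested.

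The promoters show which of these genes carry letters known from B cell gene control. RefSeq promoter sequences (GRCm38.p6) were held for 33 of the 38 genes in 40 windows of 250 bases before the start site. The octamer bound by OCT proteins with the co-activator OBF-1 (ATGCAAAT) was found in 2 of these windows, which is 5%, against 1.60% of all 32851 windows. The EBF1 letters (TCCC and GGGA with any 2 bases between) were in 1 window, or 2.5%, against 0.779%. The Ets letters that PU.1 and SPI-B can bind (GAGGAAGT) were in 3 windows, or 7.5%, against 2.44%. Both strands were searched and no matches overlapped each other. The 6 stretches of 30 bases with a match are shown because they belong to genes described below and place the letters near the start site, with the matching letters in capitals and each sequence read along the strand of its gene.
Cd22: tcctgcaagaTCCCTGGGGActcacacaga
Btla: tctagggaggaaGAGGAAGTttgcccttac
Cd37: acccccccggaACTTCCTCtttctctgccg
Cd72: gccaaagacctACTTCCTCttttatgactt
Blnk: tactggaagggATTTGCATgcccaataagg
Ccr6: aaatgaaaaaaATTTGCATgtcacagtgaa
The Cd22 stretch (chr7:30879058-30879087, minus strand) holds the EBF1 letters, starting 49 bases before the start site. Those of Btla (chr16:45224307-45224336, plus strand), Cd37 (chr7:45238846-45238875, minus strand) and Cd72 (chr4:43454657-43454686, minus strand) hold the Ets letters, starting 18, 25 and 49 bases before it. The octamer starts 130 bases before the start site of Blnk (chr19:40994333-40994362, minus strand) and 68 bases before one of those of Ccr6 (chr17:8235964-8235993, plus strand). In Cd37, Cd72, Blnk and Ccr6 the match lies on the strand opposite to the gene and reads as its reverse complement. The start sites are those of RefSeq. By the gene spans of GENCODE M21 the matches of Cd22, Btla, Cd37 and Blnk lie inside the annotated gene and not before it. These matches describe letters only, and no binding was measured.

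The genes of the B cell receptor and its co-receptors were high in 2 of the 4 Gsdme_KO libraries, KO4 and KO5, and low in KO7, KO8 and all WT libraries. All 13 genes of this group had KO4 as the highest library and KO5 as the second. Cd79a, one of the receptor's paired signalling chains (chromosome 7, 24897381 to 24902197, GRCm38), had normalized counts of 2029, 1239.8, 196 and 129 in Gsdme_KO, against 129, 176, 155 and 121 in WT. Its partner Cd79b (chromosome 11) had 1013, 691, 46.3 and 34.7 in Gsdme_KO, against 30.6, 70.3, 54.2 and 55.5 in WT. KO7 lay just above the highest WT library for Cd79a, while KO8 for both genes and KO7 for Cd79b lay within the WT range. Ms4a1, which encodes the B cell surface protein CD20 (chromosome 19, 11249675 to 11266241), had 1334, 704, 2.44 and 8.21 in Gsdme_KO, against 9.08, 3.57, 2.21 and 19.9 in WT. This gene was near the lowest measurable level in WT7 and KO7 and far higher only in KO4 and KO5. In bulk tissue more cells of a type and more RNA per cell cannot be told apart.

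Complement and antibody receptors of mature B cells had wide gaps between KO4 and KO5 and the rest. Cr2, the complement receptor CD21 of B cells and follicular dendritic cells (chromosome 1, 195136811 to 195176716), had 1257, 595, 4.87 and 3.65 in Gsdme_KO, against 1.13, 5.95, 0 and 12.4 in WT. KO4 was 101 times and KO5 48.0 times the highest of the other 6 libraries, which was WT8. Fcer2a, the low-affinity IgE receptor CD23 (chromosome 8, 3681737 to 3694175), had 701, 402, 7.31 and 3.65 in Gsdme_KO, against 1.13, 2.38, 4.43 and 5.79 in WT, so that KO7 slightly exceeded every WT library. Fcmr, the Fc receptor for IgM, had 634, 427, 6.09 and 1.83 in Gsdme_KO, against 6.81, 8.34, 5.53 and 12.4 in WT. Here KO8 lay below every WT library and KO7 among them.

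Receptors that restrain or tune B cell signalling followed the same order of libraries. Cd22, a sialic-acid-binding inhibitory lectin and the gene whose promoter holds the EBF1 letters, had 1280.3, 701, 26.8 and 40.2 in Gsdme_KO, against 40.8, 54.8, 26.6 and 53.0 in WT. Siglecg, a related inhibitory lectin, had 448, 210.3, 0 and 8.21 in Gsdme_KO, against 1.13, 9.53, 0 and 5.79 in WT, with no read in KO7 or in WT7. For both lectins KO7 and KO8 lay within the WT range. Cd72, an inhibitory C-type lectin, had 610.2 and 399 in KO4 and KO5, with 111 and 101 in KO7 and KO8, against 94.1 to 129 in WT. Btla, an inhibitory receptor of lymphocytes, had 606 and 345 in KO4 and KO5, with 37.8 and 28.3 in KO7 and KO8, against 11.9 to 41.4 in WT. The gap was narrower for Cd72, whose exons share bases with the opposite-strand gene Tesk1, so that its count is uncertain. Cd37, a tetraspanin of leukocytes, had 1263 and 761 in KO4 and KO5, with 111 and 106 in KO7 and KO8, against 76.1 to 112 in WT. Cd180, a relative of the Toll-like receptors that regulates B cell responses, had 309 and 167 in KO4 and KO5, with 40.2 and 24.6 in KO7 and KO8, against 16.6 to 31.8 in WT, so that KO7 lay above the WT range. Cd83, a glycoprotein of activated B cells and dendritic cells, had 539 and 349.9 in KO4 and KO5, with 82.8 and 61.1 in KO7 and KO8, against 61.9 to 87.4 in WT. KO8 lay just below the lowest WT library for Cd83 and within the WT range for Cd72, Btla, Cd37 and Cd180.

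**Figure D1:**
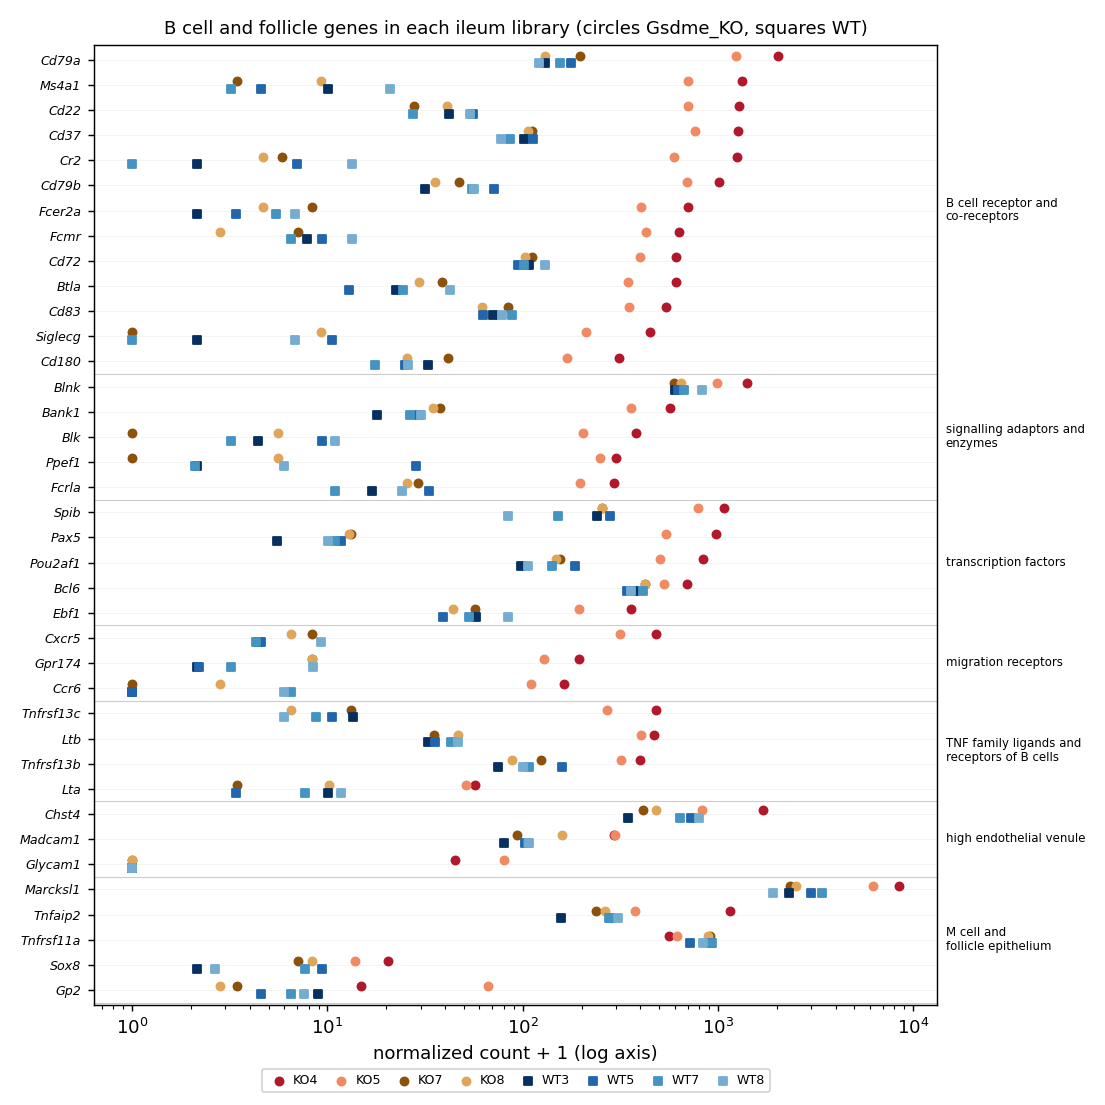
Normalized count plus 1 (log axis) of each of the 38 genes in the 4 Gsdme_KO libraries (circles) and the 4 WT libraries (squares), grouped by role. KO4 and KO5 lie to the right of the other 6 libraries for 37 of the 38 genes, the exception being Tnfrsf11a.

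Among signalling enzymes and adaptors, Blk and Ppef1 had almost no reads in KO7 or KO8, whereas Blnk was well expressed in every library. Blk, a Src-family kinase of B cells, had 381, 203, 0 and 4.56 in Gsdme_KO, against 3.40, 8.34, 2.21 and 9.93 in WT. Bank1, a scaffold protein of B cell receptor signalling, had 566, 358, 36.5 and 33.8 in Gsdme_KO, against 17.0, 28.6, 25.4 and 29.0 in WT. All 4 Gsdme_KO libraries lay above all WT libraries for Bank1, although KO7 and KO8 did so by less than 10 normalized counts. Fcrla, an intracellular Fc receptor-like protein of B cells, had 293 and 195 in KO4 and KO5, with 28.0 and 24.6 in KO7 and KO8, against 9.96 to 32.2 in WT. Ppef1, a protein phosphatase with calcium-binding EF-hand domains, had 299.6, 247, 0 and 4.56 in Gsdme_KO, against 1.13, 27.4, 1.11 and 4.97 in WT. Within WT, its level in WT5 stood above the other 3. Blnk, the adaptor that links the receptor to downstream enzymes and one of the genes with an octamer, had 1412, 983, 595 and 645 in Gsdme_KO, against 605, 626, 668 and 826 in WT. Per length of exon its WT mean was the highest of this group, and KO5 exceeded the highest WT library, WT8, by only 1.19 times.

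The transcription factors of the B lineage divided in a similar way. Pax5, which sets and keeps B cell identity (chromosome 4, 44524757 to 44710487), had 973, 543, 12.2 and 11.9 in Gsdme_KO, against 4.54, 10.7, 9.96 and 9.10 in WT, with the 4 Gsdme_KO libraries all above WT but KO7 and KO8 by fewer than 3 normalized counts. Ebf1, an early B lineage factor that stromal cells also express, had 356, 193, 56.0 and 42.9 in Gsdme_KO, against 56.7, 38.1, 52.0 and 82.8 in WT. Pou2af1, the octamer co-activator OBF-1, had 841 and 505 in KO4 and KO5, with 154 and 147 in KO7 and KO8, against 96.5 to 183 in WT. Spib, an Ets factor of B cells and M cells, had 1078, 788, 252 and 253 in Gsdme_KO, against 238, 279, 150.5 and 82.8 in WT. KO7 and KO8 lay within the WT range for Ebf1, Pou2af1 and Spib. Bcl6, the repressor required for germinal centres, had 695, 528, 423 and 421 in Gsdme_KO, against 369.9, 339, 414 and 356 in WT. The 4 Gsdme_KO libraries exceeded all WT libraries for Bcl6, and its log2 fold change of 0.45 was the smallest of the 5 factors.

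Receptors that guide B cells into follicles were close to undetected outside KO4 and KO5. Cxcr5, the receptor for the follicle chemokine CXCL13, had 483, 315, 7.31 and 5.48 in Gsdme_KO, against 3.40, 3.57, 3.32 and 8.28 in WT. Ccr6, the receptor for the epithelial chemokine CCL20 and the other gene with an octamer, had 162, 109.6, 0 and 1.83 in Gsdme_KO, against 0, 0, 5.53 and 4.97 in WT, with no read in KO7, WT3 or WT5. Gpr174, a receptor for lysophosphatidylserine on lymphocytes, had 193, 128, 7.31 and 7.30 in Gsdme_KO, against 1.13, 1.19, 2.21 and 7.45 in WT. KO7 and KO8 were level with WT8 and above the other WT libraries for Gpr174, at 6 and 8 reads.

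Genes of the TNF family, which act in building follicles and in regulating B cells, were also highest in KO4 and KO5. Ltb, which encodes the membrane-anchored chain of lymphotoxin, had 469, 403, 34.1 and 45.6 in Gsdme_KO, against 31.8, 34.5, 42.0 and 45.5 in WT. Lta, which encodes its partner chain, had 56.2, 50.3, 2.44 and 9.13 in Gsdme_KO, against 9.08, 2.38, 6.64 and 10.8 in WT. Tnfrsf13c, the BAFF receptor that mature B cells need to survive, had 478, 269, 12.2 and 5.48 in Gsdme_KO, against 12.5, 9.53, 7.74 and 4.97 in WT. Tnfrsf13b, which encodes TACI, another receptor of this ligand, had 399, 318, 123 and 87.6 in Gsdme_KO, against 73.8, 157, 106 and 99.3 in WT. For Ltb, KO8 exceeded WT8, the highest WT library, by a fraction of 1 normalized count, and KO7 and KO8 lay within the WT range for the other 3 genes.

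The 3 genes of high endothelial venules did not behave alike. Glycam1, a mucin-like ligand for L-selectin, had 44.2 and 78.8 normalized counts in KO4 and KO5, from 48 and 105 reads, and no read in KO7, KO8 or any WT library. Set against a floor of 3 reads per WT library, its Gsdme_KO mean was at least 9.63-fold higher. Madcam1, the ligand of the gut-homing integrin, had 292, 297, 92.6 and 159 in Gsdme_KO, against 79.4, 101, 105 and 107 in WT, and KO8 lay above the WT range as well. Chst4, a sulfotransferase that completes L-selectin ligands, had 1697, 826, 413 and 483 in Gsdme_KO, against 346, 729, 641 and 800.4 in WT. KO4 alone stood clear for Chst4, since KO5 was 1.03 times WT8 and KO7 and KO8 lay between WT3 and the other WT libraries. Its log2 fold change of 0.28 (SE 0.447) became -0.13 without KO4. The summed level of 10 general endothelial markers was 5952, 4977, 3952 and 4226 in Gsdme_KO, against 3767 to 4119 in WT, so KO4 and KO5 were highest there too but by much less than for Glycam1.

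The genes of M cells and follicle epithelium did not share one order of libraries. Gp2, a receptor for bacteria on mature M cells, had 13.8, 65.3, 2.44 and 1.83 in Gsdme_KO, against 7.94, 3.57, 5.53 and 6.62 in WT, so it was highest in KO5, from 87 reads, and not in KO4, with 15. KO7 and KO8 lay below all WT libraries for Gp2, at 2 reads each, and its log2 fold change of 0.56 (SE 0.936) became -0.36 without KO5. Sox8, a factor of M cell maturation, had 19.4, 12.8, 6.09 and 7.30 in Gsdme_KO, against 1.13, 8.34, 6.64 and 1.66 in WT, and was the 1 gene of the 38 that was below the expression filter of a mean of 10. Tnfaip2, a gene of M cells that inflammatory signals also raise, had 1148, 376, 235 and 262 in Gsdme_KO, against 155, 277, 277 and 308 in WT. KO4 was 3.05 times KO5 for Tnfaip2, the highest such ratio of the 38 genes. Marcksl1, an actin-regulating protein, had 8454, 6256, 2342 and 2515 in Gsdme_KO, against 2299, 2999.8, 3392 and 1902 in WT, and was the most abundant of the 38 genes per length of exon, in each Gsdme_KO library and in the WT mean. Tnfrsf11a, which encodes RANK, the receptor through which stroma induces M cells, had 560.4, 614, 913 and 884 in Gsdme_KO, against 924, 719, 930.4 and 838 in WT. It was the 1 gene with KO4 and KO5 below all other libraries, a pattern shared with 13.5% of all genes tested.

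Across the 37 genes that passed the filter of a mean of 10 normalized counts, the genotype comparison called none. The fit was limma-trend on log2(normalized count + 1) over all 16352 genes that passed, with a Benjamini-Hochberg adjusted p under 0.05 as the threshold. It called 0 of the 37 genes higher, where it called 0.00612% of all genes tested, and 0 lower, where it called 0% of them. The 1 gene called by limma was Igkv10-96, a kappa light chain segment of antibodies, named because it was the only call (limma adjusted p = 0.0237). It had 792, 1054, 797 and 974 in Gsdme_KO, against 166, 179, 235 and 279.8 in WT, so all 4 Gsdme_KO libraries were high and KO4 and KO5 did not stand apart, although closely similar segments make its count uncertain. Gsdme itself was not called by this limma fit, although all its Gsdme_KO libraries lay far below all WT libraries, while DESeq2 called it lower (DESeq2 adjusted p = 2.12e-07). A gene left uncalled by limma here may therefore still differ. The smallest limma adjusted p among the 37 was 0.849. At an unadjusted p under 0.05, limma listed 13 of the 37 as higher, against 2.61% of all genes tested, and 0 as lower, against 1.77%. The edgeR quasi-likelihood test on recovered reads called 0 of the 37, where it called 0.00612% of all genes tested higher, and at an unadjusted p under 0.05 it listed 31 as higher, against 4.43%. DESeq2 on the same reads gave no adjusted p for some genes, Glycam1 and Gp2 among them, and these stay in the totals. It called 4 of the 37 higher, against 0.0489% of all genes tested. These were Gpr174 (DESeq2 adjusted p = 0.0274), Fcer2a (0.0325), Bank1 (0.0325) and Pax5 (0.0371). Under all other alternatives the adjusted p of these 4 genes lay between 0.429 and 1.00. Because the 37 genes were chosen from this same comparison, nothing is read from these counts beyond their size.

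The differences were large in many of these genes, and so were their standard errors. The log2 fold change was positive for 36 of the 37 genes, against 50.6% of all genes tested, and above 1 for 28 of them, against 2.55%. Its median was 1.81, beside 0.0026 over all genes tested, and it ran from -0.23 for Tnfrsf11a to 4.16 for Cr2. On recovered reads the median was 2.64 with edgeR and 2.63 with DESeq2. The log2 fold change of Cr2 was then 6.44 and 6.57, that of Ms4a1 5.78 and 5.88, and that of Cd79a 2.64 and 2.63, in the same order of tools, all larger than in the limma fit. In the limma fit the standard error was 1.92 for Cr2, 1.88 for Ms4a1 (log2 fold change 3.31) and 0.817 for Cd79a (1.80), against 0.166 for Bcl6 (0.45). In normalized counts, Cd79a averaged 898 ± 909 in Gsdme_KO and 145 ± 25.2 in WT (SD, n = 4 each). The 4 libraries of one genotype all lay above those of the other for 3 of the 37 genes, Bank1, Pax5 and Bcl6, each higher in Gsdme_KO, a share to be set beside 1.31% of all genes tested. No gene of the 37 lay wholly lower in Gsdme_KO, against 1.19% of all genes.

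The order of libraries was shared by nearly the whole set. KO4 and KO5 were the 2 highest libraries for 36 of the 37 tested genes, against 14.1% of all genes tested. KO4 was first and KO5 second for 33 of them, against 11.4%. Both were at least 5 times the highest of the other 6 libraries for 21 of the 37, against 0.379% of all genes tested. KO4 was at least 10 times that value for 19 genes and KO5 for 12, with Glycam1 left out because that value was 0. The share over all genes was not computed for 10 times, so these 2 counts are not read as a result about the genes. Of the 38 genes, 9 had under 10 normalized counts in each of the other 6 libraries. Those of them that passed the filter did so only through KO4 and KO5. So did Cr2, Ms4a1, Fcmr, Pax5, Lta, Ppef1 and Tnfrsf13c, whose other 6 libraries averaged under 10 although at least 1 lay above it. For all these genes a place in these counts, and a positive log2 fold change above, was largely fixed by the filter. Gpr174, Fcer2a and Pax5, called higher by DESeq2, are among them.

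The ratio of KO4 to KO5 varied less among B cell receptor genes than among the vessel and epithelial genes. For the 13 receptor and co-receptor genes it ran from 1.47 to 2.13, with a median of 1.75. The ratio was 1.90 (95% interval 1.74 to 2.06) for Ms4a1 and 1.64 (95% interval 1.53 to 1.75) for Cd79a, where the exact interval covers counting error only. The migration receptors had ratios from 1.48 to 1.53. Lymphotoxin genes lay lower, with 1.17 (95% interval 1.03 to 1.32) for Ltb and 1.12 (95% interval 0.78 to 1.60) for Lta. Glycam1, at 0.561 (95% interval 0.390 to 0.797), and Gp2, at 0.212 (95% interval 0.114 to 0.369), were higher in KO5, and the interval of Madcam1 included 1. Over all genes tested the median ratio was 1.00. Each ratio compares 2 libraries and not 2 genotypes.

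**Figure D2:**
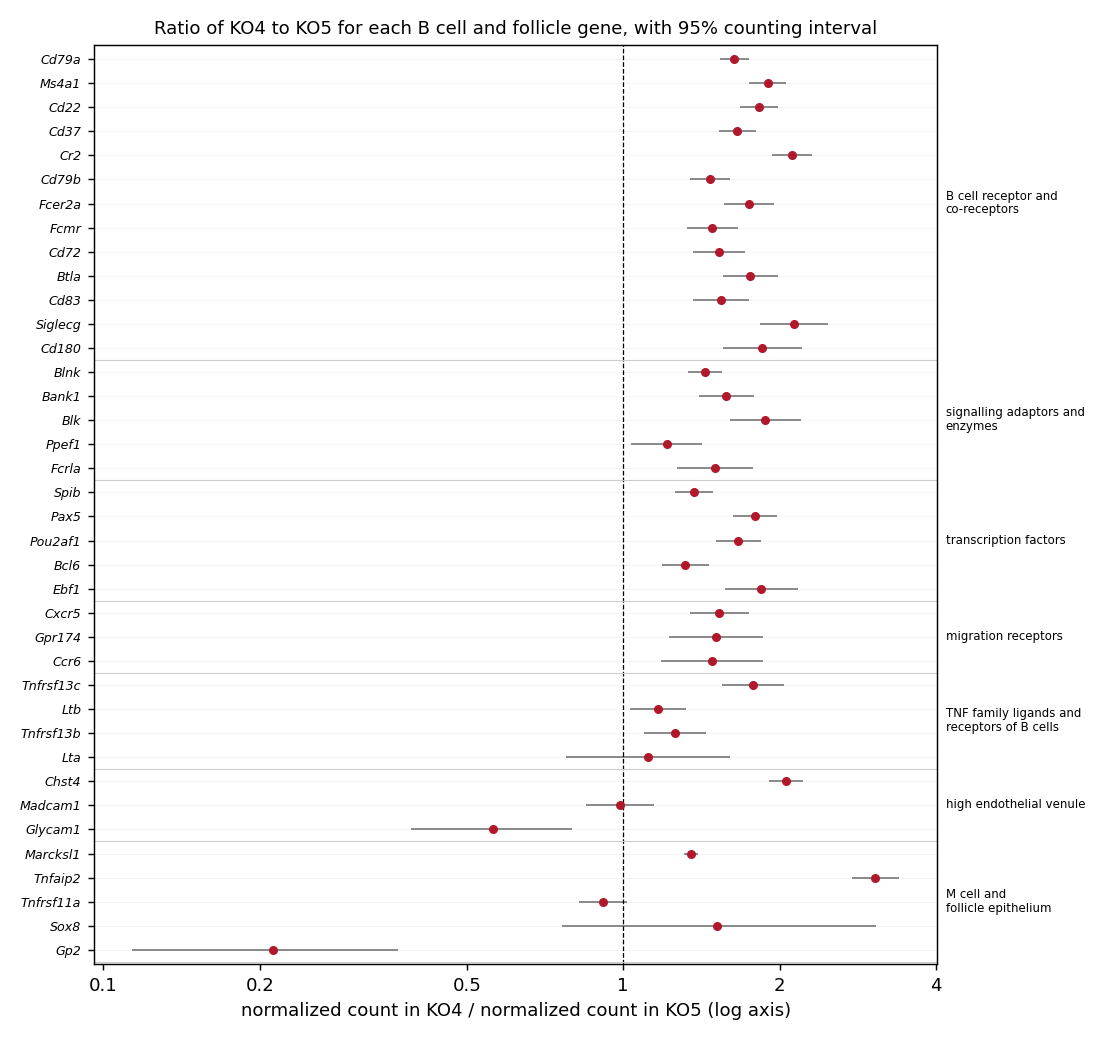
Normalized count in KO4 divided by that in KO5 (log axis) for each of the 38 genes, with the 95% exact counting interval as a bar and the dashed line at 1. The receptor genes at the top lie between 1.47 and 2.13, whereas Gp2 lies at 0.212 and Tnfaip2 at 3.05.

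KO7 and KO8 did not differ from WT in a common direction. Without KO4 and KO5 the median log2 fold change of the 37 genes was 0, beside 0.01 over all genes tested, with 18 positive values, 18 negative values and 1 of 0, for Glycam1. The share of positive values over all genes was 51.9%. In this fit 0 of the 37 genes were called by limma, which called 0% of all genes tested higher and 0.00612% lower. At an unadjusted p under 0.05 it listed 0 of the 37 as higher, against 1.03% of all genes, and 0 as lower, against 1.73%. Individual values ran from -1.39 for Blk to 1.31 for Gpr174, both genes with under 10 normalized counts in these 6 libraries. The filter was still the one set with KO4 and KO5 included, and 9 of the 38 genes stayed under 10 in each of these 6 libraries. Cr2, Ms4a1, Fcmr, Pax5, Lta, Ppef1 and Tnfrsf13c averaged under 10 in them. The signs of such genes rest on few reads, and the lack of calls among them says little. KO7 lay within the range of the 4 WT libraries for 27 of the 37 genes, against 64.5% of all genes tested. KO8 did so for 29, against 71.3%, and both did for 23, against 50.5%.

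**Figure D3:**
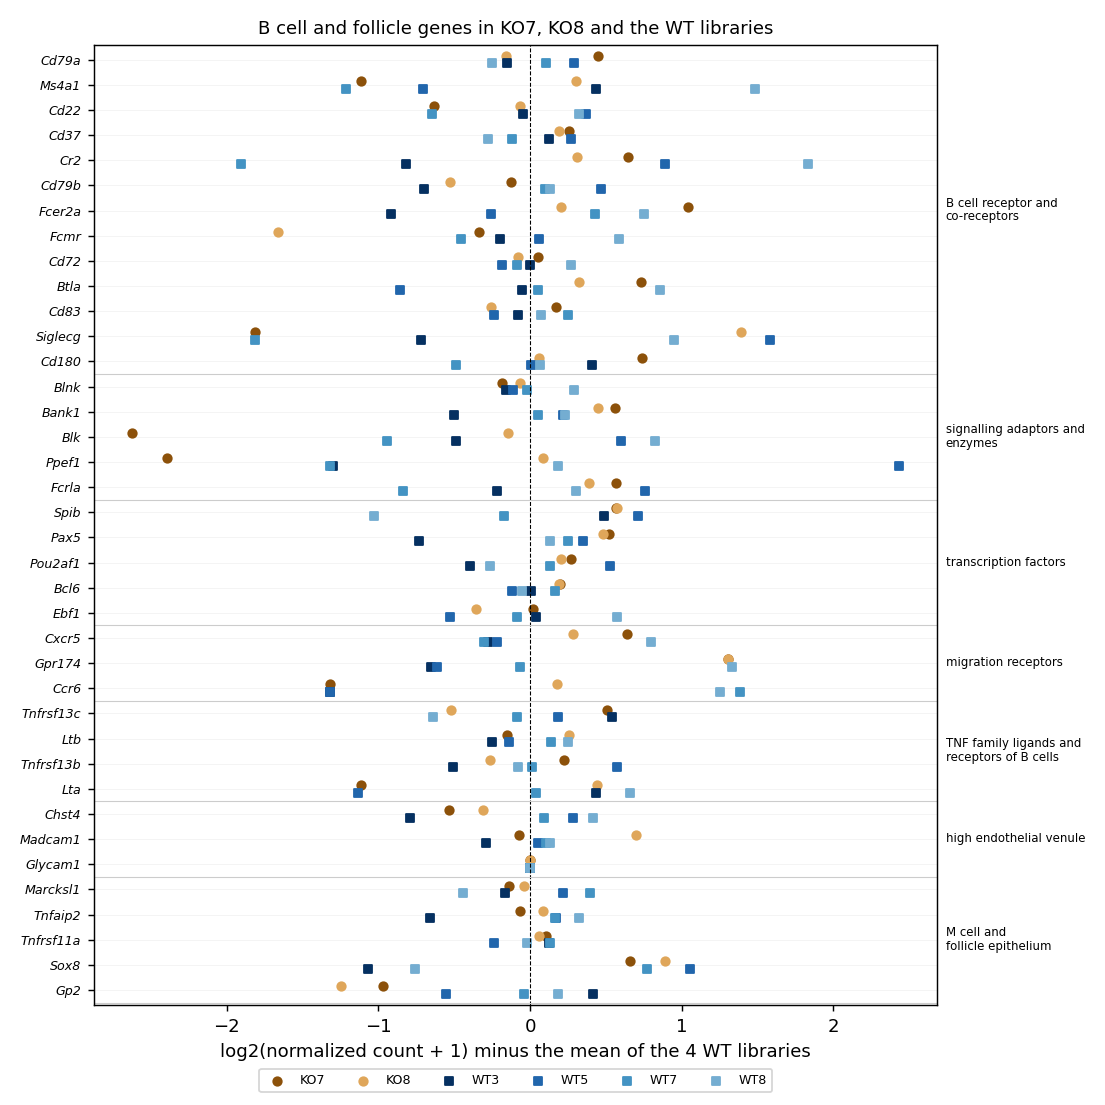
Each of the 38 genes in KO7 and KO8 (circles) and in the 4 WT libraries (squares), as log2(normalized count + 1) minus the mean of the 4 WT libraries. The circles fall on both sides of 0, from well below it for Blk in KO7 to above it for Gpr174 in KO7 and KO8.

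Among these 6 libraries WT8 was the highest for 13 of the 37 genes, including Ms4a1, Cr2 and Cxcr5, and over all genes tested it was the highest for 25.0%. WT3 was the lowest for 11 of the 37, against 12.9% of all genes. In WT8 Ms4a1 had 19.9 and Cr2 12.4 normalized counts, against 9.08 and 1.13 in WT3. All of these lay far below KO5.

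Levels can be compared between genes only per length, here as normalized counts per kilobase of exon. In KO4 Cd79a had 1392 per kilobase, Cd79b 708, Spib 376 and Fcmr 365, while Ebf1 had 36.5 and Gp2 6.92. In WT the means per kilobase were 99.7 for Cd79a, 114 for Blnk, 276 for Chst4 and 143 for Tnfrsf11a, against 1.40 for Ms4a1 and 0.601 for Cr2. Tnfrsf11a and Chst4 were thus among the most abundant of the 38 genes per length in WT, and they were the 2 genes with the lowest log2 fold changes.

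Other genes of the same pathways were read from lists that hold none of the 38. None of their tested genes, nor of the marker lists, was called by limma, edgeR or DESeq2. At an unadjusted p under 0.05 limma listed between 0 and 3 genes per list as higher and between 0 and 1 as lower in the pathway lists. In the marker lists it listed between 0 and 4 genes per list as higher and 0 as lower, with the 4 among the 10 T cell markers. Over all genes tested it listed 2.61% as higher and 1.77% as lower. Of 20 further genes of B cell receptor signalling, all tested, 19 had a positive log2 fold change (median 0.49). For this and the lists below, the share of positive values over all genes tested was 50.6%. Prkcb, a protein kinase C used by the receptor, had 339 and 263 in KO4 and KO5, with 65.8 and 46.5 in KO7 and KO8, against 40.9 to 71.5 in WT. Of the genes with most reads, Cd81, a tetraspanin, had 2456 and 2395 in KO4 and KO5, with 2116 and 2209.6 in KO7 and KO8, against 2093 to 2266 in WT, and Bcl10, an adaptor of NF-kB activation, had 1683 and 1507 in KO4 and KO5, with 1548 and 1459 in KO7 and KO8, against 1542 to 1737 in WT.

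Of 20 further genes of B cell identity and homing, 19 were tested and 18 had a positive log2 fold change (median 1.55). Ighd, the IgD heavy chain of naive B cells, had 2212, 1212, 23.1 and 16.4 in Gsdme_KO, against 17.0, 16.7, 11.1 and 44.7 in WT, a log2 fold change of 3.16 (SE 1.56). Ccr7, a receptor for entry into lymphoid organs, had 172 and 147 in KO4 and KO5, with 3.65 and 10.04 in KO7 and KO8, against 2.21 to 7.94 in WT, a log2 fold change of 2.53. Cd74, the MHC class II invariant chain and the gene of the list with most reads, had 29999.6 and 18189 in KO4 and KO5, with 11413 and 6654 in KO7 and KO8, against 6875 to 8797 in WT. Cd24a, next in reads, had 4224 and 6242 in KO4 and KO5, with 4070.4 and 4305 in KO7 and KO8, against 2895 to 4689 in WT, and was higher in KO5 than in KO4. The summed level of plasma cell genes did not follow the B cell genes, but most of that sum was Igha. Of the 10 plasma cell markers, 9 had a positive log2 fold change (median 0.24, highest 0.96), against 50.6% of all genes tested. KO4 and KO5 were the 2 highest libraries for 3 of them, against 14.1%. The summed level of 10 plasma cell markers was 98085, 117077, 130702 and 96340.2 in Gsdme_KO, against 66139 to 141627 in WT, and Igha, the IgA heavy chain, had 67835, 84333, 95796 and 68546 in Gsdme_KO, against 66455, 103960.0, 72522 and 43311 in WT, with the genotypes overlapping.

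Germinal centre and follicular helper T cell genes were mostly low. Of 16 genes 9 were tested, 7 of them with a positive log2 fold change (median 0.45). Il21r, a cytokine receptor of B and T cells, had 556 and 299 in KO4 and KO5, with 41.4 and 50.2 in KO7 and KO8, against 34.3 to 72.8 in WT, the largest log2 fold change of the list at 1.52, followed by Aff3 at 1.11. The gene of the list with most reads was Rgs13, which tuft cells also express, at 135 and 182 in KO4 and KO5, with 306 and 214 in KO7 and KO8, against 50.5 to 235 in WT.

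The lymphotoxin receptor pathway and follicle stroma list had 17 of 20 genes tested, 14 with a positive log2 fold change (median 0.23). Cxcl13, the stromal chemokine that draws CXCR5-bearing cells into follicles, had 716, 472, 31.7 and 30.1 in Gsdme_KO, against 40.8, 51.2, 57.5 and 111 in WT. Its log2 fold change was 1.15, ahead of that of Tnf (1.06), which had 427 in KO4 and 66.1 in KO5. The receptor gene Ltbr had 2083 and 2128 in KO4 and KO5, with 1985 and 1915 in KO7 and KO8, against 1661 to 2202 in WT, and Tnfrsf1a, the gene of the list with most reads, had 5565 and 3028 in KO4 and KO5, with 3356 and 3290.2 in KO7 and KO8, against 3065 to 3549 in WT. Ccl21a had no read in any library, and its near-identical copies make its count uncertain.

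Of 10 further genes of high endothelial venules 8 were tested, 6 with a positive log2 fold change (median 0.36). Selp, which encodes P-selectin, had 175 and 127 in KO4 and KO5, with 65.8 and 83.1 in KO7 and KO8, against 21.6 to 91.0 in WT, and Enpp2, which makes lysophosphatidic acid, had 524 and 318 in KO4 and KO5, with 337 and 285 in KO7 and KO8, against 149.8 to 322 in WT. B3gnt3, a glycosyltransferase gene, and Cd34, a sialomucin of endothelium, had the most reads of the list, with log2 fold changes of -0.02 and 0.25 and overlapping genotypes in each. Of 14 further genes of M cells and follicle epithelium, all tested, 11 had a positive log2 fold change (median 0.29). Anxa10, an annexin, had 241, 398, 8.53 and 2.74 in Gsdme_KO, against 6.81, 35.7, 0 and 13.2 in WT, with KO5 above KO4 as for Gp2. Ubd, a ubiquitin-like protein induced by interferon-gamma and TNF, had 3623 and 234 in KO4 and KO5, with 112 and 40.2 in KO7 and KO8, against 52.0 to 209 in WT. Serpinb1a, a protease inhibitor gene, had 20271 and 22122 in KO4 and KO5, with 17047 and 13969 in KO7 and KO8, against 17440.0 to 21316 in WT, and Ccl6, a chemokine gene, had 5287 and 6201 in KO4 and KO5, with 4144 and 4122 in KO7 and KO8, against 4137 to 5861 in WT, so the genes of the list with most reads overlapped between genotypes.

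**Figure D4:**
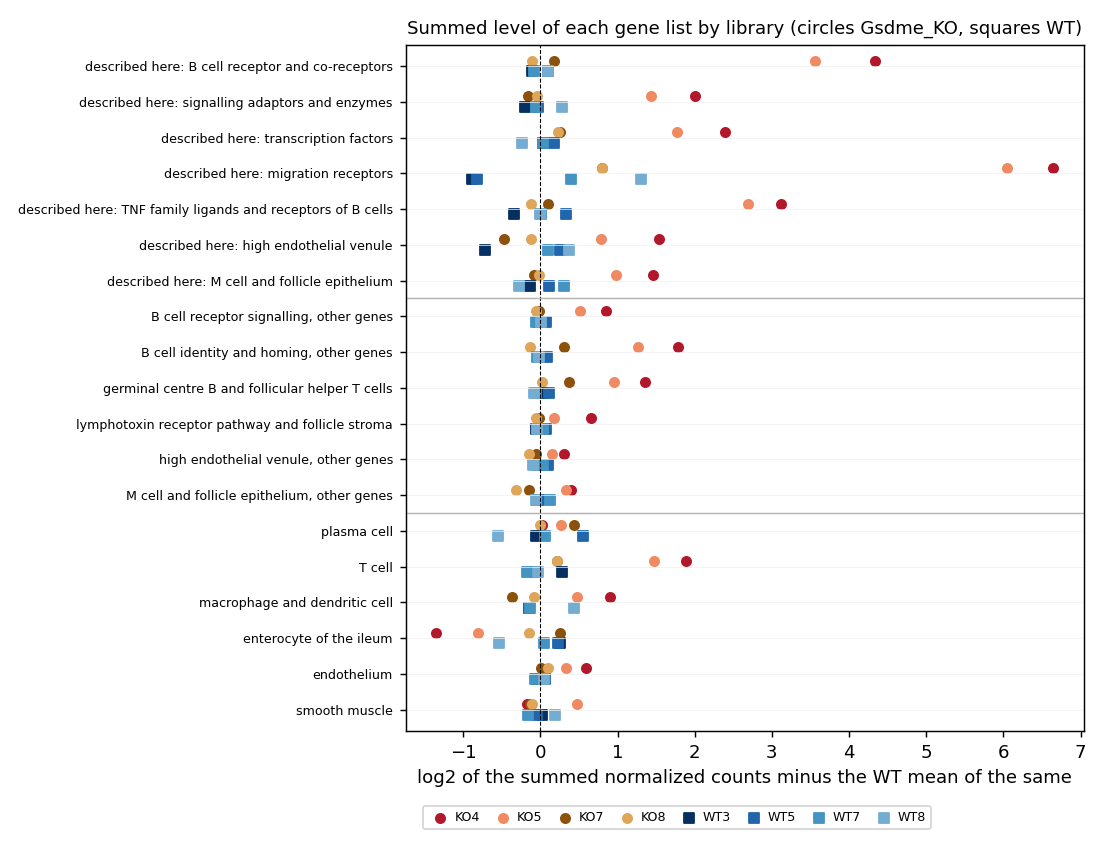
Summed normalized counts of each gene list in each library, as log2 minus the mean of the 4 WT libraries, for the 7 groups of the 38 genes, the further pathway genes and the markers of other cell types (Gsdme_KO circles, WT squares). KO4 and KO5 lie furthest to the right for the migration receptors and the B cell receptor group, near the other libraries for plasma cell genes, and to the left of all others for enterocyte markers.

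The markers of other cell types moved with KO4 and KO5 to different extents. All 10 T cell markers had KO4 and KO5 as their 2 highest libraries, against 14.1% of all genes tested. So did 5 of 10 macrophage and dendritic cell markers, 4 of 10 endothelial markers and 3 of 10 plasma cell markers. The count was 1 of 6 for smooth muscle markers and 0 of 10 for ileal enterocyte markers. None of these markers was at 0 in every library. The macrophage and dendritic cell sum was 10884, 8106, 4538 and 5502 in Gsdme_KO, against 5279 to 7868 in WT, and the smooth muscle sum was 48514, 76015, 49801 and 50625 in Gsdme_KO, against 48979.6 to 62244 in WT. Smooth muscle was highest in KO5 and lowest in KO4, unlike any group of the B cell genes. The ileal markers of bile acid uptake were present in every library. Slc10a2, the apical transporter, had 7983 and 8955 in KO4 and KO5, with 24892 and 17117 in KO7 and KO8, against 18982 to 25319 in WT. Fabp6, the ileal binding protein, had 14739 and 22058 in KO4 and KO5, with 57087 and 49312 in KO7 and KO8, against 17519 to 72985 in WT. The part of these cell types in the B cell gene levels was not tested.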

How the data were processed

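Total RNA from ileum was made into strand-specific poly(A) libraries, per the labels' protocols. Build GRCm38 and the tools featureCounts, Subread, HISAT2, SAMtools and DESeq2 are named in the submitters' processing notes. The sources used here give no tool version, no gene annotation and no strand setting for the counting. The deposited values are a signal per gene and library, read counts that the authors divided by a library-wide factor. All values (100%) came out as whole multiples of 1 step per library within 0.01 reads, so whole reads were recovered. The column headers number the libraries differently from the labels, so columns were assigned to a genotype only. No rows lacked a gene ID.

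The test was limma-trend (limma 3.58.1, R 4.3.3) on log2(normalized count + 1) for genes with a mean of at least 10, adjusted over all 16352. It was tested on simulated data in which the libraries of each genotype shared a mean for each gene. A split within Gsdme_KO, as between KO4 and KO5 and the rest, was not simulated. Fold changes on this scale understate low genes. Alternatives were pseudocounts of 0.5 and 5, no filter, a mean of at least 50, TMM scaling, edgeR 4.0.16, DESeq2 1.42.0, each library left out, and KO4 and KO5 left out. Intervals are exact at 95% and cover counting error only. Positions and exon lengths are from GENCODE M21 (GRCm38), which held 55141 of the 55487 IDs. The genes and lists were chosen with earlier results of these data known. All 38 genes are named, and from each further list the 2 of largest change and the 2 of highest mean, with others added after their values were seen and a few left out that are not reported here. Exons of Cd72 and Tesk1 on opposite strands share 1423 bases, so their reads are uncertain, and 8 more of the genes share exon bases with an opposite-strand gene.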

Additional observations from a re-analysis of the deposited data

Results flagged for a closer look

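Chance alone places about 1 in 20 groups of 4 past the criterion used here, a gap between the extreme library and its nearest neighbour above Dixon's critical share of the range. Of 75 groups with any spread, 4 passed it. Ppef1 had 27.4 normalized counts in WT5, against 4.97 in the next WT library. Cxcr5 had 8.28 and Gpr174 7.45 in WT8, against 3.57 and 2.21 in the next, all low counts. Tnfaip2 had 1148 in KO4, against 376 in KO5.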

How the results depend on the processing

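No paired analysis was possible because the column headers carry numbers that cannot be tied to the replicate numbers of the labels. DESeq2 called 9 genes in all, 8 higher and 1 lower, and 4 of the 37 tested genes described here, where limma called 1 and 0. With each library left out in turn, limma called between 0 and 1 gene of all tested, with 1 (Igkv10-96) only without WT8, and 0 of the 37. The median log2 fold change lay between 1.12 (without KO4) and 2.45 (without KO8), with 1.27 without KO5. The number of genes whose genotypes did not overlap lay between 3 and 7, with 7 without WT5, 6 without WT8 or KO8 and 5 without KO7, which follows in part from fewer libraries to overlap. The share over all genes was not computed for these settings, so the rise is not read as a result about these genes. Without KO4 and KO5 the median log2 fold change was 0, 18 genes turned negative, Glycam1 reached 0, and Tnfrsf11a became positive (0.08). No gene of the 37 changed sign under both pseudocounts, no filter, TMM, edgeR or DESeq2, and none of the 32 still tested did with a mean of at least 50. Values near or under 3 reads are limited by depth, as for Glycam1 in all 6 libraries other than KO4 and KO5 and for Siglecg and Ccr6 in some of them.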

Other observations

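Outside every list, the 10 tested genes (gene models, pseudogenes and antibody segments left out) whose log2 values over the 8 libraries lay nearest, by Pearson correlation, to the mean profile of the 37 tested genes included Cmtm7, Cxcr4, Hvcn1, Il16, Gga2, Arhgap45, Mfge8, Coro1a and Fmnl3. That profile was 4.04 and 3.50 above the WT mean in KO4 and KO5 on the log2 scale, but -0.11 and 0.07 in KO7 and KO8, so likeness to it rests on KO4 and KO5. Cxcr4, a chemokine receptor of lymphocytes, had 579.8 and 336 in KO4 and KO5, with 48.7 and 59.3 in KO7 and KO8, against 42.0 to 61.3 in WT. Hvcn1, a proton channel of B cells and phagocytes, had 984 and 677 in KO4 and KO5, with 67.0 and 94.9 in KO7 and KO8, against 85.1 to 95.2 in WT. Coro1a, an actin-binding protein of leukocytes, had 2812 and 1946 in KO4 and KO5, with 507 and 498 in KO7 and KO8, against 491 to 661 in WT. Mfge8, a bridge protein by which phagocytes take up dying cells and which follicular dendritic cells secrete, had 4048 and 3659 in KO4 and KO5, with 1358 and 1245 in KO7 and KO8, against 1211 to 1629 in WT. In each of these 4 genes KO7 and KO8 were far below KO5.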
